A study of Mus musculus with 6 samples.

Results

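Acute-phase proteins are plasma and tissue proteins whose synthesis changes during infection or injury. Here, 9 mouse genes of this class were followed in EGCs (enteric glial cells, which surround the neurons of the intestine) upon stimulation with LPS (lipopolysaccharide, from the outer membrane of Gram-negative bacteria). The members were chosen by gene symbol: Saa3, Saa1, Saa2, Lcn2, Hp, Ptx3, Serpina3n, Orm1 and Serpina3g. All 9 symbols were found among the 46603 gene identifiers of the count files, each once. The EGCs were grown out of neurospheres made from total gut of embryonic day 14.5 embryos of the C57BL/6J mouse strain and were then kept in serum until confluence. Poly(A) RNA of 3 control cultures without treatment (NIL) and 3 cultures given 100 ng/ml LPS for 12 h was sequenced, and the study profiled these cells to examine how EGCs act on monocytes. All 6 cultures shared the strain, the growth factors and the serum, and no gene was deleted in any of them. The labels do not say whether replicates came from separate embryos or preparations, so p-values measure only the spread between these libraries, which may be technical.

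The best known acute-phase response is that of the liver. Hepatocytes exposed to interleukin-6 and interleukin-1 secrete large amounts of serum amyloid A, haptoglobin and other proteins, while albumin and transthyretin fall. The signals reach the genes through STAT3, C/EBPβ, C/EBPδ and NF-κB. Several of these genes are also made outside the liver, where their products bind lipids, iron carriers, free haemoglobin or microbial surfaces, or inhibit proteases. Saa3, Lcn2, Ptx3 and Serpina3n are often studied as such locally made factors, and Lcn2 and Serpina3n are well known from reactive astrocytes of the brain.

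Library totals lay between 18775316 and 23664312 counts. The glial marker Sox10 was present in every library (73.8 to 101 CPM, counts per 1000000 counts of normalized library size), Gfap was low (2.23 to 7.22 CPM) and S100b was called lower in LPS (22.2 ± 2.20 and 5.92 ± 3.08 CPM, SD, n = 3 each), while Fabp7 was called higher (2.55 ± 0.256 and 6.27 ± 1.05 CPM) and the other 6 of 8 glial markers were not called. The 8 glial markers summed to 315 to 449 CPM in control, the 6 mesenchymal markers to 10580 to 12272 CPM, and all 6 smooth muscle markers, at a sum of 2266 to 2492 CPM in control, were called lower in LPS with a median log2 fold change of -1.85. The 6 mesothelial markers summed to 84.1 to 124 CPM in control and 40.3 to 64.2 CPM in LPS, and 2 of them were called lower. Macrophage markers were present as well. Where values are given for each library, they stand in the order of replicates 1, 2 and 3. The summed level of 10 macrophage markers was 3869, 4980 and 11806 CPM without LPS and 3902, 5061 and 19228 CPM with LPS, so that replicate 3 was the highest in both groups. Lyz2 made up most of the sum in every library, and near-equal sums hid opposite moves of single markers. In replicates 1 and 2, Adgre1 was at 159 and 229 CPM in control and at 952 and 1261 CPM in LPS. Mrc1 was there at 197 and 331 CPM in control and at 9.29 and 10.4 CPM in LPS. In these bulk samples, more cells of a type and more RNA per cell cannot be told apart. LPS and control were compared by the quasi-likelihood test of edgeR, and a gene is called at an adjusted p-value under 0.05 over 15226 tested genes.

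Upon LPS, the acute-phase genes rose together. All 9 were called higher, against a background of 9.09% of tested genes called higher (6.71% were called lower), and in all 9 the lowest LPS library exceeded the highest control library, which held for 19.3% of tested genes. Their median log2 fold change was 6.08, against -0.02 for all tested genes. The members were chosen with earlier results of these data known, so these values describe them and do not test the class. Of the members, 6 exceeded the filter level of 0.475 CPM in all control libraries. Saa1 and Saa2 exceeded it in no control library and Orm1 in 1, so these genes were tested through their LPS libraries and had to be higher there to be tested at all. No member was called lower by edgeR, at an unadjusted p under 0.05, or by DESeq2, the edgeR exact test or limma-voom (0 of 9 in each).

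**Figure D1:**
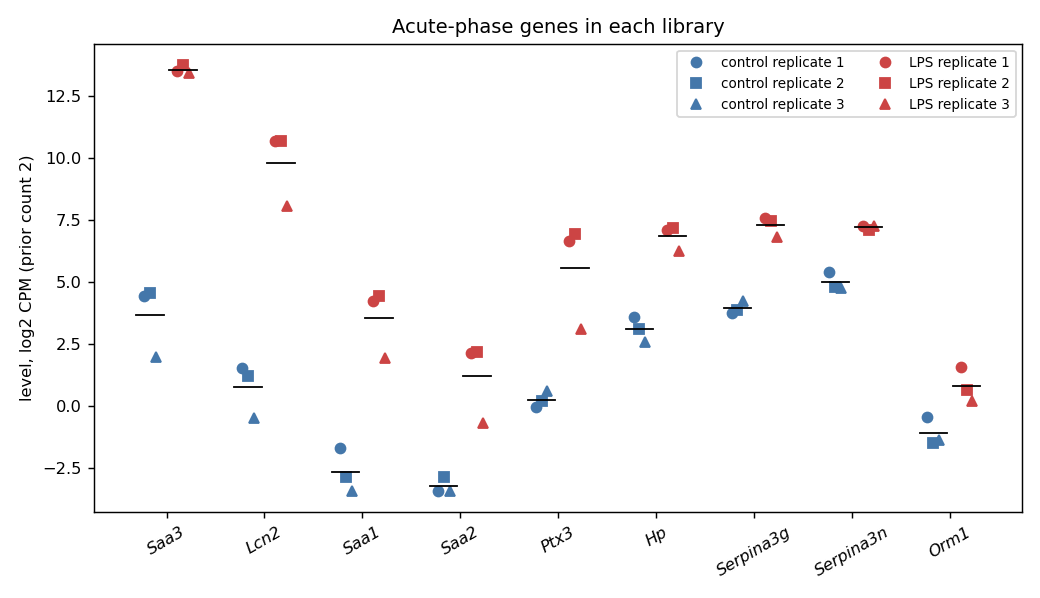
Level of each acute-phase gene in every library, as log2 CPM with a prior count of 2 (vertical axis), for 3 control (blue) and 3 LPS (red) libraries. Symbols mark the replicate number and black lines the group means. Groups do not overlap for any of the 9 genes. LPS replicate 3 (red triangle) lies below the other LPS libraries for every gene but Serpina3n, and the most so for Lcn2, Saa1, Saa2 and Ptx3.

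The 250 bases before the RefSeq start site (GRCm38.p6) are shown for the 3 serum amyloid A genes, Lcn2 and Serpina3g, since they are, in turn, the family with the member of the highest level upon LPS, the second member in that order, and the member with matches to the most kinds of motif. The sequences are written 5′ to 3′ on the strand of the gene, and capitals mark matches, on either strand, to the motifs described after the results. The windows are chr7:46715677-46715926 (minus strand) for Saa3, chr7:46742981-46743230 (minus strand) for Saa1, chr7:46751583-46751832 (plus strand) for Saa2, chr2:32387740-32387989 (minus strand) for Lcn2 and chr12:104235897-104236146 (plus strand) for Serpina3g.
Saa3: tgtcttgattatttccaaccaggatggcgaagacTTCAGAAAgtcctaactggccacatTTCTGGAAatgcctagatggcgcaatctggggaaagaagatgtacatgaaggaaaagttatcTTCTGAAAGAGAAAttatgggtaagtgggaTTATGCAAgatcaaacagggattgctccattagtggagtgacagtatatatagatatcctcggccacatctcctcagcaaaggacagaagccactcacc
Saa1: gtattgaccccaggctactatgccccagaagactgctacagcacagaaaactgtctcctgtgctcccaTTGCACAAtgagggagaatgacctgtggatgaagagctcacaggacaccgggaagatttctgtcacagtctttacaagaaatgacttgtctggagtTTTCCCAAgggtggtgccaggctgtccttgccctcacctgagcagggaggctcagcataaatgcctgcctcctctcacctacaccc
Saa2: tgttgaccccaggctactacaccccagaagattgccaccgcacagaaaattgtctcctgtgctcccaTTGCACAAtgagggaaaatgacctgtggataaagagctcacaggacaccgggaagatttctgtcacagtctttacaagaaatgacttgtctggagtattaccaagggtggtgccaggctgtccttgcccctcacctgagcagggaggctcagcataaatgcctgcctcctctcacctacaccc
Lcn2: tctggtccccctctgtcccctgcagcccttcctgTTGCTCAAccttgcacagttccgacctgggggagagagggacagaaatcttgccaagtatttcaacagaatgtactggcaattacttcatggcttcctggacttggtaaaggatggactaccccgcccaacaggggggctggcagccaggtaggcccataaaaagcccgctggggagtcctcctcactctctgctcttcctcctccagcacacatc
Serpina3g: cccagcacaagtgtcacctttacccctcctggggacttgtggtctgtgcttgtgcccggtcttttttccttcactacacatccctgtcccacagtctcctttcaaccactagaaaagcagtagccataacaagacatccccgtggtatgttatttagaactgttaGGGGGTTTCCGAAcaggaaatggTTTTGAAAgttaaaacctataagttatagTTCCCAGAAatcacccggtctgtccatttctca

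Serum amyloid A proteins are small apolipoproteins that bind high-density lipoprotein and act on leukocytes. Saa3 (ENSMUSG00000040026, chr7:46711998-46715700, minus strand) is the form made mainly outside the liver. Its level was 21.7, 23.5 and 3.84 CPM in control and 11618, 13521 and 11007 CPM upon LPS. The control libraries differed from each other by more, in proportion, than the LPS libraries did, and control replicate 3 was the lowest. The log2 fold change was 9.53 (SE 0.87, edgeR adjusted p = 0.00254), rank 15 of 15226 tested genes. Among genes ordered by count, Saa3 stood at rank 7498, 7238 and 11680 in the control libraries and at rank 1, 1 and 3 in the LPS libraries. It took 1.12% (exact 95% binomial interval 1.12 to 1.13%), 1.29% (1.29 to 1.30%) and 1.01% (1.00 to 1.01%) of all counts in the LPS libraries, intervals that cover counting error only.

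Saa1 and Saa2 encode the serum amyloid A forms that the liver sends into the circulation. Saa1 (ENSMUSG00000074115, chr7:46740497-46742980, minus strand) had 5, 1 and 0 counts in the control libraries and 376, 384 and 72 counts upon LPS. In CPM the LPS libraries were at 18.6, 21.4 and 3.77, with replicate 3 well below the other two. The log2 fold change of Saa1 was 7.32 (SE 1.09, edgeR adjusted p = 0.0119), and 9.07 without control replicate 1, which held 5 of its 6 control counts. Saa2 (ENSMUSG00000057465, chr7:46751790-46754313, plus strand) had a single count over the 3 control libraries, against 86, 80 and 10 counts in LPS. Its count ratio, corrected for library size, was 216 with a 95% counting interval of 38.3 to 8589, and its fitted log2 fold change of 7.26 (SE 1.30, edgeR adjusted p = 0.0198) is no bound, because it depends on the prior count. Without control replicate 2, which held that count, the fitted value was 9.02. The call for Saa1 was lost without control replicate 2 (adjusted p = 0.0751) and with limma-voom (0.0524), over a range of 8.62e-12 to 0.0751 in 14 alternatives. The call for Saa2 was lost in each of the 5 fits that left out a single library, LPS replicate 3 excepted (up to 0.119, from a lowest value of 4.38e-06).

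Saa1 and Saa2 cannot be fully separated in these counts. Of the 50-base words in Saa1 transcripts, 31.1% also occur in Saa2, and 30.0% of those in Saa2 occur in Saa1. How reads with several alignments were treated is not given in the sources used here. Saa3 shared 4.15% of its words with any other gene and 0.346% with Saa1.

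Lcn2 encodes lipocalin 2, which binds the iron carriers (siderophores) of bacteria. Lcn2 (ENSMUSG00000026822, chr2:32384633-32388252, minus strand) was at 2.75, 2.21 and 0.620 CPM in control. Upon LPS it reached 1645 and 1643 CPM in replicates 1 and 2 and 264 CPM in replicate 3. The LPS libraries thus fell into a pair of nearly equal values and a lower one, which was still far above all controls. The log2 fold change of Lcn2 was 9.31 (SE 1.09, edgeR adjusted p = 0.0055), rank 19 of all tested genes, and 9.79 without LPS replicate 3 (adjusted p = 0.000606).

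Hp encodes haptoglobin, the plasma protein that captures free haemoglobin. Hp (ENSMUSG00000031722, chr8:109575128-109579172, minus strand) was at 11.8, 8.59 and 5.87 CPM in control and at 136, 144 and 75.1 CPM in LPS. It was thus expressed at rest and rose by a smaller factor than Lcn2 in the same cultures. The log2 fold change of Hp was 3.76 (SE 0.37, edgeR adjusted p = 0.00322).

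Ptx3 encodes the long pentraxin PTX3, a soluble pattern recognition molecule that, unlike the short pentraxins CRP and serum amyloid P, is made mainly in tissues outside the liver. Ptx3 (ENSMUSG00000027832, chr3:66219910-66225805, plus strand) was at 0.890, 1.06 and 1.41 CPM in control and at 98.5, 122 and 8.38 CPM in LPS. The highest control library and the lowest LPS library were therefore both replicate 3. Its log2 fold change was 6.08 (SE 1.09, edgeR adjusted p = 0.0197), and paired by replicate number the differences in log2 CPM were 6.65, 6.72 and 2.50. The call for Ptx3 was lost with limma-voom (0.188) and without any 1 of the other 5 libraries (0.0512 to 0.101), while without LPS replicate 3 the adjusted p was 0.000124. Ptx3 lies within the span of Veph1 on the opposite strand, with no overlap between exons. The genes of the short pentraxins were near the detection floor. Crp had at most 0.642 CPM and Apcs at most 0.279 CPM in any library, and neither was tested.

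The serpins Serpina3n and Serpina3g are related to human antichymotrypsin. Serpina3n encodes a secreted serine protease inhibitor, and Serpina3g encodes an inhibitor that stays inside the cell. Serpina3n (ENSMUSG00000021091, chr12:104406729-104414329, plus strand) was at 42.3, 27.7 and 27.0 CPM in control and at 152, 137 and 151 CPM in LPS, a log2 fold change of 2.18 (SE 0.20, edgeR adjusted p = 0.00239). Serpina3g (ENSMUSG00000041481, chr12:104236245-104241939, plus strand) was at 13.3, 14.3 and 18.5 CPM in control and at 188, 176 and 113 CPM in LPS, a log2 fold change of 3.37 (SE 0.25, edgeR adjusted p = 0.00127). Both were readily detected at rest, and their LPS libraries were closer to each other than those of Lcn2 or Ptx3. Serpina3g shared 15.5% of its 50-base words with other genes, chiefly Serpina3h (8.89%), Serpina3i (6.84%) and Serpina3f (6.29%), and Serpina3n shared 6.90%.

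Orm1 encodes orosomucoid (alpha-1-acid glycoprotein), a plasma carrier of lipophilic molecules. Orm1 (ENSMUSG00000039196, chr4:63344560-63348163, plus strand) had 15, 6 and 7 counts in control and 58, 26 and 20 counts in LPS, that is 0.636, 0.266 and 0.289 CPM against 2.87, 1.45 and 1.05 CPM. Its log2 fold change of 2.16 (SE 0.54) was within its error of that of Serpina3n, and it was the closest of the members to the threshold (edgeR adjusted p = 0.0485). Its call was lost in 9 of 14 alternatives, with adjusted p-values up to 0.173 without control replicate 2. Orm1 shared 20.4% of its words with Orm2, which was not tested, and which had 3 counts in control and 52 in LPS.

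**Figure D2:**
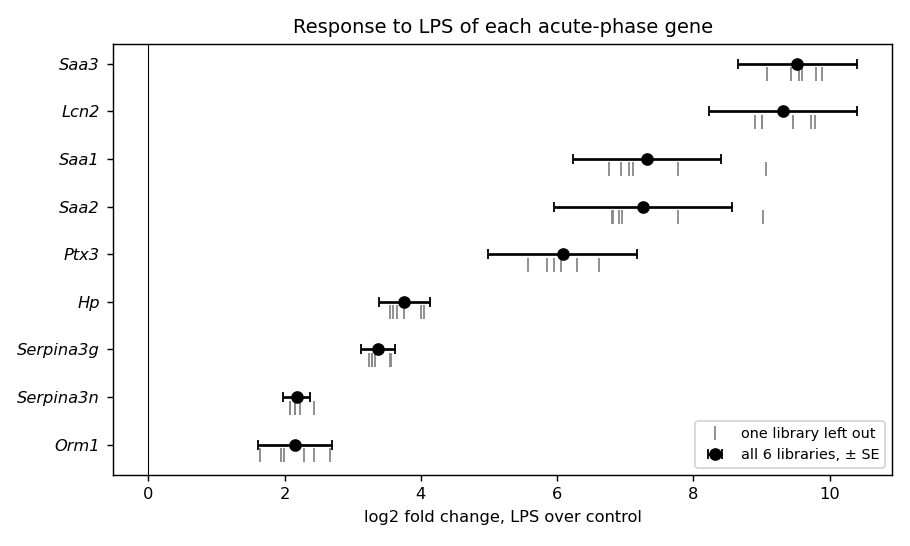
Log2 fold change of LPS over control (horizontal axis) for each acute-phase gene, with points and bars for the fit of all 6 libraries ± SE and grey ticks for fits that left out one library. Saa3 (9.53) and Lcn2 (9.31) lie at the upper end and Serpina3n (2.18) and Orm1 (2.16) at the lower end, and no tick crosses 0.

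The members also differed in level, which is compared here per length, as CPM per kilobase of exon. In control, Serpina3n was the most abundant (15.7 ± 4.18 CPM per kilobase, SD, n = 3), followed by Serpina3g (7.31 ± 1.31), Saa3 (6.27 ± 4.17) and Hp (5.45 ± 1.84). Serpina3g, Saa3 and Hp did not differ beyond their spread. Lcn2, Orm1 and Ptx3 were between 0.417 and 0.710 CPM per kilobase, also within each other's spread, and Saa1 and Saa2 were at the floor or close to it. Upon LPS the order was another one. Saa3 was at 4624 ± 503 CPM per kilobase (SD, n = 3), rank 2 of all tested genes, and Lcn2 at 451 ± 304 CPM per kilobase, rank 66. Serpina3g (75.6 ± 19.2), Hp (73.6 ± 23.4) and Serpina3n (70.9 ± 3.94 CPM per kilobase) followed and could not be ordered. Ptx3 (28.4 ± 22.4) came next, with 3.12 CPM per kilobase in LPS replicate 3, and Saa1 (5.89 ± 3.82), Orm1 (2.31 ± 1.23) and Saa2 (1.22 ± 0.879 CPM per kilobase) were the lowest and overlapped. The exon length of Saa1 and Saa2 includes retained introns. On the length of the longest coding transcript, a choice made after seeing the data, the LPS means of Saa1 and Saa2 were 23.9 and 4.72 CPM per kilobase, so that Saa2 stood above Orm1, and that of Lcn2 was 1294 CPM per kilobase. In control, this length gave 2.04 CPM per kilobase for Lcn2, 0.590 for Ptx3 and 0.512 for Orm1.

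Added up, the 9 genes held 0.0101%, 0.00824% and 0.00589% of all counts in control and 1.34%, 1.51% and 1.07% in LPS. Saa3 made up 23.2%, 30.2% and 6.68% of these member counts in control and 83.8%, 85.7% and 94.7% in LPS. In the LPS libraries the class was thus, by count, mostly Saa3.

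LPS replicate 3 set the members apart from each other. Relative to the mean of LPS replicates 1 and 2, it held 7.60% of the level of Ptx3, 12.0% of Saa2, 16.1% of Lcn2 and 18.9% of Saa1. Orm1 (48.5%), Hp (53.7%) and Serpina3g (61.9%) were intermediate, and Saa3 (87.6%) and Serpina3n (104%) were close to the other LPS libraries. The median over the 764 genes called at least 2-fold higher was 91.5%, and 35 of them (4.58%) were under 20%. Along with this, the macrophage markers, given above, were highest in LPS replicate 3. All 10 were tested, and 1 of them (Adgre1, named after its values had been seen) was called higher in LPS. Mrc1 was not called (log2 fold change -3.08, edgeR adjusted p = 0.145), although its groups did not overlap. It was at 9.29, 10.4 and 131 CPM upon LPS, and paired by replicate number its differences in log2 CPM were -4.39, -4.99 and -2.52. Cd68 and Cx3cr1 were also lower in LPS in every same-numbered pair and were not called. Adgre1, Ptprc, Itgam and Fcgr1 were higher in every such pair, and Adgre1 alone was called. The part of the macrophage transcripts in the differences between members was not tested. Without LPS replicate 3, all 9 members were called higher, against a background of 12.6%.

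**Figure D3:**
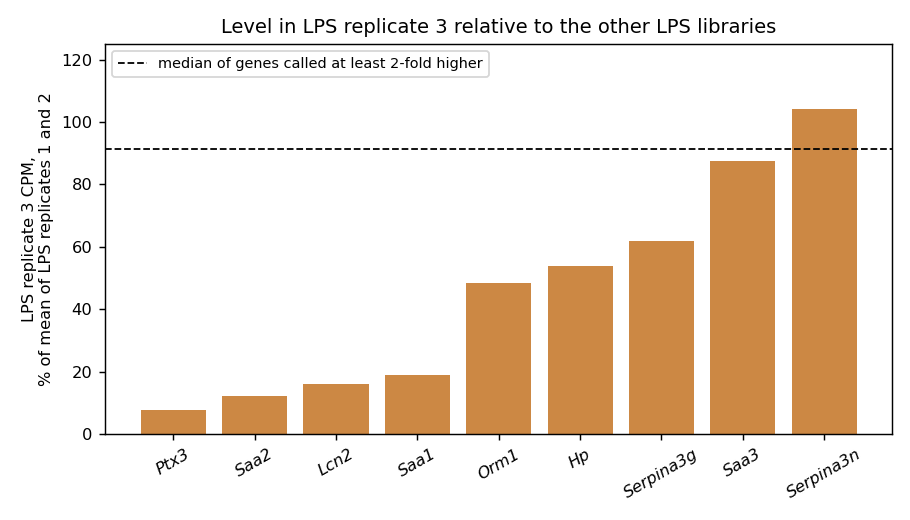
Level in LPS replicate 3 as a percentage of the mean CPM of LPS replicates 1 and 2 (vertical axis) for each acute-phase gene. The dashed line is the median of the 764 genes called at least 2-fold higher (91.5%), and Ptx3, Saa2, Lcn2 and Saa1 lie under 20%.

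Several members lie in gene clusters, and their neighbours within 50 kb were examined after these values had been seen. In the Saa cluster on chromosome 7, all 4 genes of the family were tested and called higher (background 9.09%), but Saa1, Saa2 and Saa4 exceeded the filter level in no control library and were tested through LPS. Saa4, which encodes a constitutive form of serum amyloid A, had 5 counts in control and 111 in LPS (log2 fold change 4.66, SE 0.86, edgeR adjusted p = 0.0215). Its call was lost in 5 of 14 alternatives (adjusted p up to 0.094, from 1.58e-05), and without control replicate 2 its log2 fold change was 5.36. Of the genes next to the cluster, Hps5 was called higher at a log2 fold change of 0.49, Saal1 (-0.13) and Gtf2h1 (0.09) were not called, and Tph1, with 4 counts in control and 65 in LPS, was not tested. In the Serpina3 cluster on chromosome 12, 5 of 14 genes and pseudogenes passed the filter and all 5 were called higher: the 2 members, Serpina3f, Serpina3h and Serpina3i (background 9.09%). The last 3 were under the filter level in 1 or more control libraries and passed with their LPS libraries. Serpina3f was at 0.101 ± 0.0693 CPM in control and rose to 17.5 ± 6.50 CPM (SD, n = 3 each), a count ratio of 176 (95% counting interval 85.1 to 439). Without control replicate 2 the fold change of Serpina3f was 1.54 times larger than with all 6 libraries (log2 7.37), and without control replicate 3 the log2 fold change of Serpina3h was 4.03 instead of 2.93. The other 9 had few or no counts, and the shared sequence given above limits how far reads can be assigned within the cluster. Next to Orm1 on chromosome 4, Col27a1, Akna and Whrn were tested and not called.

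**Figure D4:**
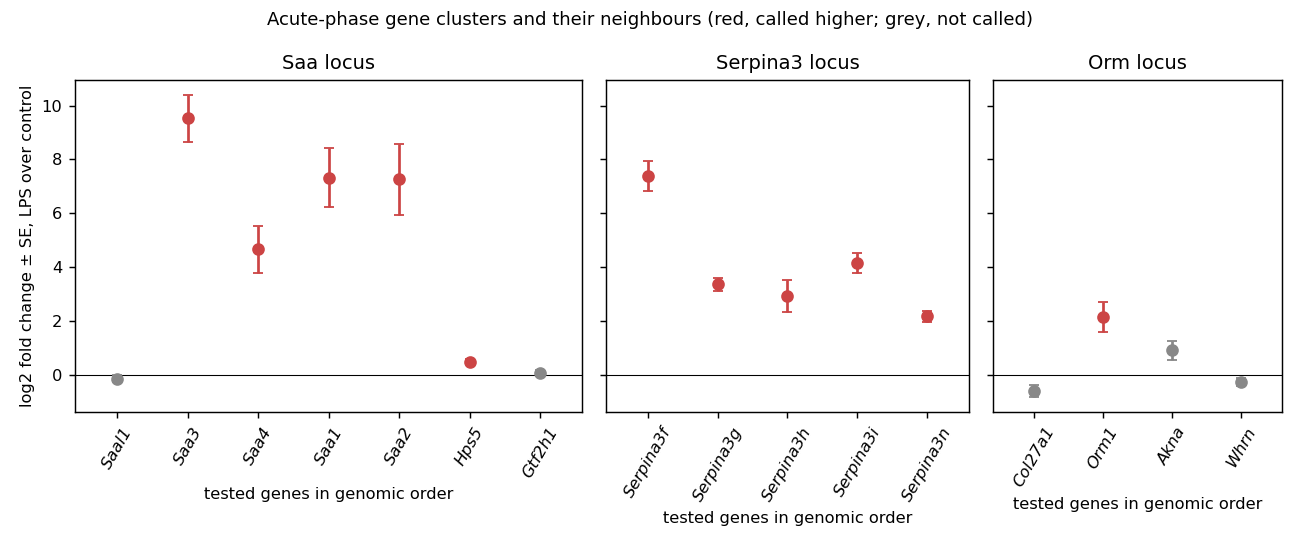
Log2 fold change of LPS over control ± SE (vertical axis) for the tested genes within 50 kb of the Saa, Serpina3 and Orm clusters, in genomic order. Red points were called higher and grey points were not called. Family genes lie between 2.16 and 9.53, and the genes next to them between -0.59 and 0.92. Of the family genes, Saa1, Saa2, Saa4, Serpina3f, Serpina3h, Serpina3i and Orm1 passed the filter with their LPS libraries, which favours high values. No gene next to the Serpina3 cluster was tested.

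Next, other acute-phase genes were examined in a list that does not hold the members. Of 34 genes, 24 were tested and 15 were called higher (background 9.09%), with a median log2 fold change of 2.25 over the tested genes. Of the 24, 18 exceeded the filter level in all control libraries, and 9 of these were called higher. The other 6, all called higher, passed with their LPS libraries (Saa4, Cfb, Serpina3f, Serpina3h, Serpina3i and Tnfaip6). None was called lower by edgeR, at an unadjusted p under 0.05, or by DESeq2, the edgeR exact test or limma-voom (0 of 24 in each). Among complement genes, C3, the central component, rose by 5.43 on the log2 scale, with a mean of 53.5 ± 8.94 CPM at rest and of 2302 ± 813 CPM upon LPS (SD, n = 3 each). Cfb, the factor B of the alternative pathway, had at most 3 counts in each control library and 41.7 ± 5.41 CPM in LPS (SD, n = 3). Serping1, the C1 inhibitor, rose by 2.27 on the log2 scale. Cp, which encodes the copper-binding ferroxidase ceruloplasmin, was at 23.0 ± 4.04 CPM in control and rose to 667 ± 215 CPM in LPS (SD, n = 3 each), with an edgeR adjusted p of 0.000878 and a log2 fold change of 4.86. Lbp, the LPS-binding protein, rose by 3.81, the metallothionein gene Mt2 by 3.84, the metalloreductase gene Steap4 by 5.60 and the interleukin-1 receptor antagonist gene Il1rn by 3.41 on the log2 scale. LPS replicate 3 held 352% of the mean Il1rn level of LPS replicates 1 and 2, and without it the log2 fold change was 2.53. For Steap4, Mt2 and Lbp it held 11.3%, 33.3% and 36.0%. The call for Steap4 was lost in 5 of 15 alternatives, among them limma-voom, and the calls for Mt2 and Il1rn in 2 each. Mt1 (1.81) and Tnfaip6 (1.88) were called as well, with edgeR adjusted p-values of 0.0443 and 0.0358. The call for Mt1 was lost in 8 of 15 alternatives, among them limma-voom and the replicate number as a block, and that for Tnfaip6 in 5 of 14. Of the 15 genes, 7 were called in every alternative in which they were tested: C3, Cfb, Cp, Lbp, Serping1, Serpina3f and Serpina3i.

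Other genes of the list were not called. The fibrinogen chains Fga, Fgb and Fgg had log2 fold changes of 0.15, 0.43 and 0.20 and were not called (edgeR adjusted p = 0.899, 0.716 and 0.846). Hpx (1.34), A2m (2.03) and the LPS coreceptor gene Cd14 (2.22) were not called with all 6 libraries (0.225, 0.0695 and 0.101), and all 3 were called with the replicate block. DESeq2 and the edgeR exact test also called Cd14 and A2m. Cd14 was called without control replicate 3 as well (3.28, adjusted p = 0.0285), A2m without LPS replicate 3, and Hpx was at 1.96 without control replicate 1. None of the 7 tested negative acute-phase genes, which fall in the liver response, was called in either direction by edgeR, at an unadjusted p under 0.05, or by DESeq2, the edgeR exact test or limma-voom (0 of 7 in each). Alb, the albumin gene, was at 37.8, 19.3 and 14.3 CPM in control and at 52.7, 23.6 and 15.2 CPM in LPS, so that replicate 1 was the highest in both groups. The summed level of 8 hepatocyte markers was 65.9, 34.5 and 21.2 CPM in control and 76.3, 37.1 and 24.5 CPM in LPS, and of the 6 that were tested none was called by edgeR, at an unadjusted p under 0.05, or by the other tools (0 of 6 in each). Hp and Orm1 were also highest in replicate 1 of the control group, and Orm1 in replicate 1 of the LPS group. This was not particular to them. Saa1, Lcn2 and Serpina3n were highest in control replicate 1 as well, and Lcn2, Serpina3n and Serpina3g in LPS replicate 1. The part of the hepatocyte transcripts in the levels of Hp and Orm1 was not tested.

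Lcn2, Hp and Ptx3 are also stored by neutrophils, and the neutrophil markers were therefore counted. Of 10 markers, 8 were at or under 3 counts in every library, among them Ly6g, Elane, Mpo, Ltf and S100a9, and Ngp and Retnlg were at 0. The summed level of the 10 was 1.16 to 1.82 CPM in control and 7.90 to 22.6 CPM in LPS. S100a8 accounted for most of this in LPS (14.9, 13.5 and 4.03 CPM) and was called higher (log2 fold change 4.87, edgeR adjusted p = 0.0205). It was tested through its LPS libraries, and control replicate 3 held 20 of its control counts against 3 and 3 in the other controls. Camp, at 1.14 and 6.17 CPM on average, was not called by that test (2.44, 0.0553). DESeq2 and the edgeR exact test called 2 markers higher, and 13.7% and 9.39% of all tested genes. The part of these transcripts in the levels of Lcn2, Hp and Ptx3 was not tested.

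The genes that induce the acute-phase response were examined in a list of cytokines, receptors and transcription factors. Of 23 genes, all of which were tested, 17 were called higher (background 9.09%) and 0 lower by edgeR, with a median log2 fold change of 1.86. At an unadjusted p under 0.05, by DESeq2 and by the edgeR exact test 1 gene, Cebpa, was lower, and 0 by limma-voom. Il6 was at 6.37 ± 0.988 CPM in control and rose to 221 ± 77.9 CPM in LPS (SD, n = 3 each), with an edgeR adjusted p of 0.000656 and a log2 fold change of 5.11. Il1a rose from 1.47 ± 0.307 to 473 ± 195 CPM, and Il1b, with at most 3 counts in any control library, reached 407 ± 89.2 CPM in LPS (SD, n = 3 each). Il1b was thus tested through its LPS libraries. Tnf rose by 5.29 and Lif, a cytokine of the interleukin-6 family, by 2.51 on the log2 scale. The receptor genes Osmr (1.11), Il1r1 (1.10) and Il1rap (2.14) were called higher, whereas Il6st, the shared receptor chain gp130, was at 346 ± 20.3 and 420 ± 123 CPM (SD, n = 3 each) and was not called (edgeR adjusted p = 0.458). Without LPS replicate 3, where Il6st was at 278 CPM against 498 and 485 CPM, it was called (adjusted p = 0.0121). The receptor genes Il6ra (-0.23, adjusted p = 0.461) and Tnfrsf1a (-0.05, 0.856) were not called. The call for Osmr was lost without control replicate 1 or 2 (up to 0.0595) and that for Lif without control replicate 2 (0.0535). Of the 17 genes, 13 were called in every alternative in which they were tested.

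Downstream, the C/EBP factors Cebpb and Cebpd were called higher. Cebpb rose from 86.7 ± 18.1 to 214 ± 18.4 CPM and Cebpd from 33.0 ± 2.38 to 164 ± 47.0 CPM (SD, n = 3 each), or 1.31 (edgeR adjusted p = 0.00711) and 2.31 (0.00325) on the log2 scale. Cebpa was at 27.6, 38.7 and 96.3 CPM in control and at 7.31, 7.69 and 17.7 CPM in LPS, a log2 fold change of -2.31 that missed the threshold (edgeR adjusted p = 0.0532). With the replicate block it was called lower (-2.24, adjusted p = 0.00137), and over its alternatives the adjusted p ranged from 0.000747 to 0.176. Cebpa was highest in replicate 3 of both groups, as were the macrophage markers. Their part in its level was not tested. Stat3 was at 269 ± 21.8 and 341 ± 10.8 CPM (SD, n = 3 each), with an edgeR adjusted p of 0.0506 at a log2 fold change of 0.34. It was called in 5 of 15 alternatives: the replicate block (0.0229), DESeq2, limma-voom, at least 10 counts in every library, and without control replicate 3. Osm, which encodes oncostatin M, was called with the block only, at a log2 fold change of 0.84 (0.028), against 0.79 (0.444) without the block. Jak2 rose by 2.65 and Socs3, a feedback inhibitor of the pathway, by 2.45. Among NF-κB genes, Nfkbia, Nfkbiz and Nfkb1 rose by 3.47, 2.52 and 1.86 on the log2 scale. Jak1 (0.34) and Rela (0.44) were called at edgeR adjusted p-values of 0.0477 and 0.0246, calls that were lost in 9 and 6 alternatives.

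**Figure D5:**
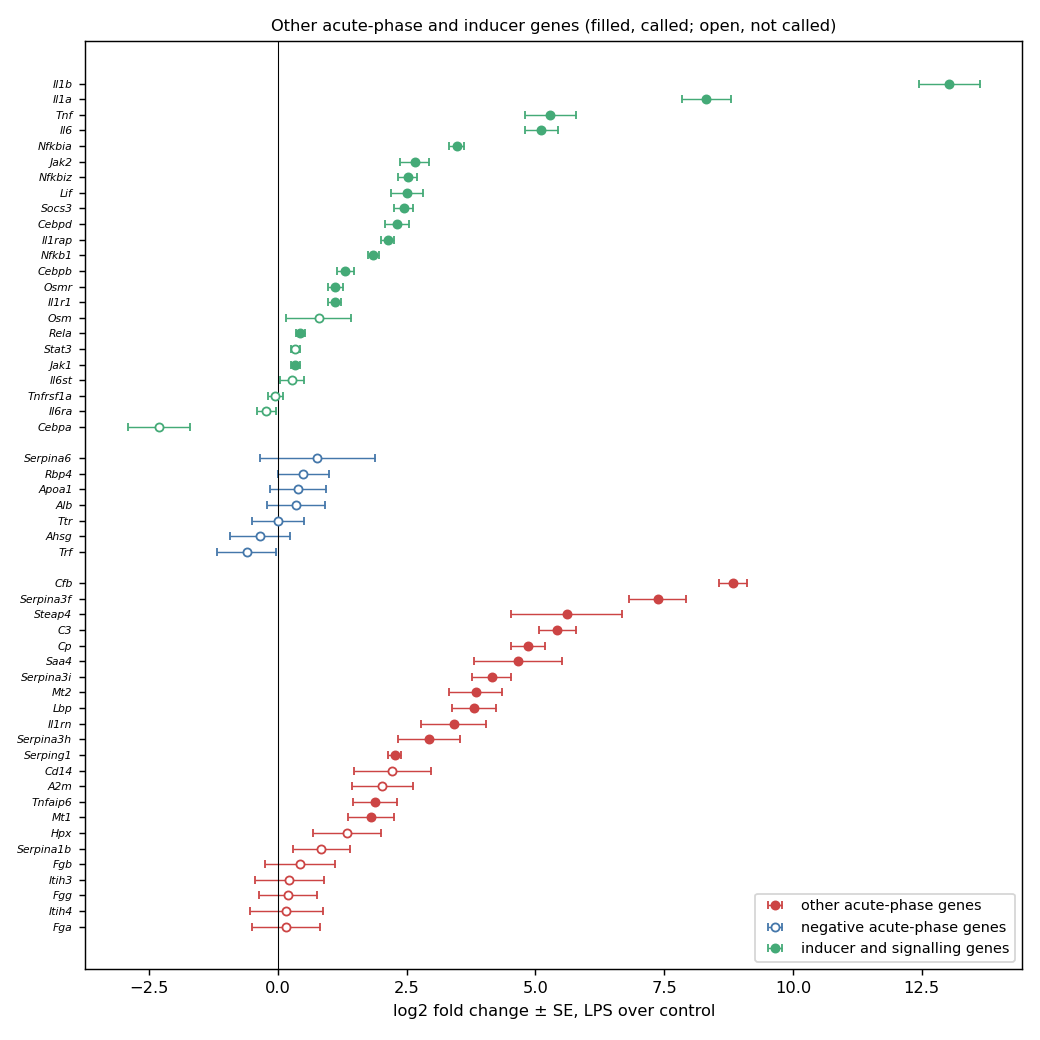
Log2 fold change of LPS over control ± SE (horizontal axis) for tested genes of the other acute-phase (red, 1 gene not shown), negative acute-phase (blue) and inducer and signalling (green) lists, with filled points for called and open points for genes that were not called. All 7 negative acute-phase genes have open points between -0.60 and 0.76, those of the fibrinogen chains lie between 0.15 and 0.43, and Cebpa lies alone at -2.31.

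The promoter windows printed above were searched, together with 50 bases after the start, for motifs of the factors that act on these genes. Of the 9 members, 7 had a RefSeq window of 300 bases, and Hp and Orm1 had none. The C/EBP motif was TTNNGNAA, the STAT motif TTCNNNGAA, the core of the interferon-stimulated response element GAAA, any 2 bases and GAAA, and the TATA box TATAAA, all on both strands, and the NF-κB consensus was searched by its usual degenerate letters. All 7 windows held a C/EBP match, against 40.7% of 32851 windows of the same length. Saa3 held the most, 4, among them TTATGCAA at -99 to -92 from the start site. One of the 4 overlapped the match of the interferon element at -125 to -116, a motif found in 3.44% of all windows. Serpina3g held a STAT match, TTCCCAGAA at -33 to -25 (8.3% of windows), and an NF-κB match at -85 to -76 that overlapped a C/EBP match. Ptx3 held NF-κB matches across its start site, and in all 2 of 7 members held one (4.51% of windows). No member held TATAAA (13.6% of windows). The windows of Saa1 and Saa2 were identical at 287 of 301 aligned positions (95.3%), whereas that of Saa3 matched Saa1 at 54.1%. A match describes the letters of a window and is neither a binding site nor a cause of the levels above.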

How the data were processed

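The authors deposited unnormalized counts for each gene, made from stranded poly(A) libraries by trimming with cutadapt 1.15, alignment to GRCm38 with STAR 2.5.2b and, per the submitters' processing notes, counting with featureCounts 1.5.3. The strand setting and the treatment of reads with several alignments are not given in the sources used here. The 6 single-library tables were used and the merged table of the series was not. Groups and replicate numbers were taken from the sample titles.

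Genes were filtered with filterByExpr (minimum count 10, minimum total 15), which kept 15226 of 24879 genes with a count. Libraries were scaled with TMM factors (0.917 to 1.08) and compared with the two-sided quasi-likelihood F-test of edgeR 4.0.16 (R 4.3.3) on group alone, with p-values adjusted by Benjamini and Hochberg. SE is the absolute log2 fold change divided by the square root of F. A count of 3 or fewer was treated as the floor (0.124 to 0.167 CPM), which, like the intervals, covers counting error only because PCR copies cannot be recognized. The script was tested on simulated data.

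Alternatives were other scaling, other filters, DESeq2 1.42.0, the edgeR exact test, limma-voom (limma 3.58.1), a block for the replicate number, and leaving out each library in turn. Deviations from the group means correlated between same-numbered libraries (r = 0.513, 0.334 and 0.613 across genes for replicates 1, 2 and 3). Libraries numbered 1 and 2 also correlated across numbers (0.419 and 0.323). LPS replicate 2 was closer to control replicate 1 (0.419) than to control replicate 2 (0.334). Replicate 3 of either group correlated negatively with both (-0.564 to -0.396). Part of this is built in, since deviations from a mean of 3 libraries cancel out within a group. These values set replicate 3 apart and do not show how replicates 1 and 2 pair. The replicate block and the paired differences took the numbers as pairs, an assumption that neither the labels nor these values establish.

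Gene coordinates come from GENCODE M21 (GRCm38) and promoter windows from RefSeq (GRCm38.p6). Members and lists were chosen with earlier results of these data known. The text names all 9 members, the called genes of the acute-phase and inducer lists, and up to 6 genes of each of these lists that were not called, by highest level. A gene of the acute-phase list entered the tests and counts but is not reported here. For each member, up to 3 genes with the nearest response profile were also allowed.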

Additional observations from a re-analysis of the deposited data

How the results depend on the processing

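Saa3, Lcn2, Hp, Serpina3n and Serpina3g kept their call in all 15 alternatives, and no member changed direction in any. The number of members called higher was 9 with all libraries, 8 with upper-quartile factors, library size alone or no filter, and 6 with limma-voom or with at least 10 counts in every library, a filter that left 6 members to test. Leaving out single libraries gave 5 to 9, with the 5 without control replicate 2. The share of all tested genes called higher moved too, to 2.44% without control replicate 2, 3.03% without control replicate 1, 3.98% and 3.36% without LPS replicates 1 and 2, 7.52% without control replicate 3, 4.48% with no filter, 6.9% and 6.48% with upper-quartile factors and library size alone, 8.21% with limma-voom and 8.71% with at least 10 counts in every library, against 9.09%. The share called lower, 6.71% with all libraries, was 13.5% with library size alone and 10.4% with upper-quartile factors, above the share called higher in both. Other acute-phase genes called higher numbered 9 with at least 10 counts in every library and 7 to 17 over the fits without one library (7 without control replicate 1 or 2, 9 without LPS replicate 1 or 2, 17 without LPS replicate 3), against 15. Inducer genes called higher ranged from 13 to 19. The number of inducer genes called lower, 0 with all libraries, was 1 (Cebpa) with upper-quartile factors, library size alone, no filter, DESeq2, the edgeR exact test and the replicate block, and 0 to 1 over the fits without one library. The cause was not tested.

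With the replicate block, 9 members, 17 other acute-phase genes and 19 inducer genes were called higher (15.4% of tested genes), and its changed calls (Mt1 lost; Hpx, A2m, Cd14, Stat3, Osm and Cebpa gained) stand beside the genes. Of genes that were not called, the log2 fold change of Fga was -0.0073 with library size alone and, without one library, -0.38 to 0.85 for Fga, -0.10 to 1.11 for Fgb, -0.38 to 0.62 for Fgg and -0.21 to 0.036 for Tnfrsf1a. Over all tested genes, the median moved to -0.12 (upper quartile) and -0.18 (library size alone). Few control counts limit the resting levels of Saa1, Saa2 and Orm1.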

Other observations

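Genes whose response profile was nearest to that of a member were found by the Euclidean distance between log2 CPM values (prior count 2) after subtracting the control mean, over the 6 libraries. For Saa3 these were Cxcl10 (2.06), Cxcl2 (2.50) and Lcn2 (2.54), and for Lcn2 they were Cxcl10 (0.741), the neutrophil chemokine gene Cxcl5 (1.13) and H2-Q6 (1.24). Serpina3g was nearest to the growth factor gene Fgf7 (0.256), Tfpi2 (0.424) and Nfkbia (0.452). Serpina3n was nearest to the phosphodiesterase gene Pde4b (0.527), Serping1 (0.545) and Trim12c (0.600). For Saa1 the nearest gene was Mmp3 (0.824), for Saa2 H2-Ab1 (0.832), for Hp Gm4070 (0.638), for Ptx3 Sprr2d (0.907) and for Orm1 Cadm2 (0.916). Distances are descriptions of 6 libraries that share their depth and scaling.

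Of 20 genes for receptors and partners of acute-phase proteins, 17 were tested, of which 6 were called higher and 2 lower (background 9.09% and 6.71%), with a median log2 fold change of -0.07. Of the 6, Fpr2, a receptor of serum amyloid A, was under the filter level in 1 control library and passed with its LPS libraries.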
